A study of Mus musculus with 12 samples.

Results

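The genes examined were Cyth4, Adap2, Pld4, Plcb2, Pik3cd, Arrb2, Arhgap45, Ccdc88b and Tcirg1. All encode signalling or trafficking proteins, and several of these are best known from cells of the blood lineages. They were taken out of 55376 gene symbols in the count table. A filter kept the 17716 genes that reached 1 CPM or more in 4 or more of the 12 samples, and 9 of 9 passed. CPM is the count of a gene scaled by the adjusted total of its library. The genes were selected on these same data, as being among the clearest rises in Jab1 mutants or the clearest falls upon loss of p21. Their differences in those comparisons are therefore given as a description, and where a count of them past a threshold is printed, the share of all genes stands beside it and nothing is read from it.

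RNA-Seq was performed on O1+ oligodendrocytes sorted from C57BL/6 mouse brains at postnatal day 40, with 4 samples in each of 3 genotypes and 2 brains pooled in each sample. WT mice were compared with Cnp-Cre Jab1fl/fl mice, in which both floxed alleles of Jab1 (Cops5, the catalytic subunit of the COP9 signalosome) are deleted by a Cre driven from the Cnp locus, and with Cnp-Cre Jab1fl/fl p21CIP1-/- mice, termed double mutants, which also lack p21CIP1 (Cdkn1a, a cyclin-dependent kinase inhibitor) in every cell of the body. Cnp-driven Cre is active in the oligodendrocyte lineage and in Schwann cells, and CD45+ and CD11b+ cells, that is leukocytes and microglia, were gated out in the sort. The study's list of animals gives C57Bl/6J as the strain of the floxed Jab1 and Cnp1-Cre lines and 129S6/SvEvTac, backcrossed, as that of the Cdkn1a knockout line. The labels do not say whether Cre-negative WT mice carried the floxed alleles. Each library held between 61485556 and 153495112 counts.

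Cells of the blood lineages, which include microglia, sense their surroundings through receptors that signal by way of lipid kinases, phospholipases and small GTPases. Cytohesins such as Cyth4 load ARF GTPases with GTP, and ArfGAP proteins such as Adap2 have the opposite action. Phospholipase C beta enzymes such as Plcb2 act below G protein-coupled receptors, which beta-arrestins such as Arrb2 switch off and internalise. The delta catalytic subunit of the class I phosphoinositide kinases, encoded by Pik3cd, is found mostly in leukocytes, Arhgap45 is a GTPase-activating protein for small GTPases, Ccdc88b belongs to the Hook-related family together with girdin, Pld4 is an exonuclease of endolysosomes, and Tcirg1 is a membrane subunit of the vacuolar proton pump that is needed by osteoclasts.

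All 9 genes are protein coding, and positions are given in GRCm38. Cyth4 was annotated on chromosome 15 from 78597047 to 78622019, Adap2 on chromosome 11 from 80154105 to 80178958, Pld4 on chromosome 12 from 112760655 to 112768990, Arhgap45 on chromosome 10 from 80016653 to 80031472, and Arrb2 on chromosome 11 from 70432635 to 70440828, all on the plus strand. On the minus strand were Ccdc88b (chromosome 19, 6844623 to 6858211), Tcirg1 (chromosome 19, 3896050 to 3907133), Plcb2 (chromosome 2, 118707517 to 118728438) and Pik3cd (chromosome 4, 149649168 to 149702571). Adap2 shares 146 exon bases with Adap2os on the other strand, and reads of these overlapping genes cannot be told apart without strand information.

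Promoter sequence (250 bases before to 50 bases after a start site, RefSeq, GRCm38.p6) was at hand for 8 of the 9 genes, with 14 promoters between them. Because the genes moved together, these windows were searched on both strands for GAGGAAGT, a form of the site that ETS factors such as PU.1 recognise in myeloid cells, for its parts GAGGAA and GGAAGT, which overlap it, for the AP-1 site TGACTCA and for the GC box CCCGCCC. The 3 windows that hold GAGGAAGT are printed below 5′ to 3′ on the strand of the gene, with GAGGAA and GAGGAAGT or their reverse complements in capitals; they belong to Cyth4 (chr15:78596797-78597096, plus strand), Pld4 (chr12:112760405-112760704, plus strand) and Ccdc88b (chr19:6858162-6858461, minus strand).
Cyth4: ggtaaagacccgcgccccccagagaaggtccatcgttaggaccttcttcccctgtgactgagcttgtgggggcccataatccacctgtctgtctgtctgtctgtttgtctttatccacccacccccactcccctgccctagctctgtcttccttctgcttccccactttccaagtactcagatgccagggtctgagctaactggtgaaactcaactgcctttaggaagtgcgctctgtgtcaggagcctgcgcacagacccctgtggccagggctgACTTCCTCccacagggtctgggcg
Pld4: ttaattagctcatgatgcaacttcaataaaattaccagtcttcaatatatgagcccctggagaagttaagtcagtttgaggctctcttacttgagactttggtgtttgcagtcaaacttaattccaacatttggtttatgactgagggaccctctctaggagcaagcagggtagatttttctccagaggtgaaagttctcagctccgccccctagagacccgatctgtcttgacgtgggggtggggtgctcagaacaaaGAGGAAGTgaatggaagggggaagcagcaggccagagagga
Ccdc88b: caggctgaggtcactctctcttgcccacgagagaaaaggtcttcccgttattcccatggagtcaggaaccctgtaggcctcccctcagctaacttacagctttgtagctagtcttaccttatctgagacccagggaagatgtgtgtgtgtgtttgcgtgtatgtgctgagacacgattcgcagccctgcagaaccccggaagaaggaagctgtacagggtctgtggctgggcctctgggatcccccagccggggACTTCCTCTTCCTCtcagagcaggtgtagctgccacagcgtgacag
In all 3 the match fell shortly after the start site, at bases 27 to 34 in Cyth4, 10 to 17 in Pld4 and 5 to 12 in Ccdc88b. GAGGAAGT was present in 3 of 14 promoters (1 each of Cyth4, Pld4 and Ccdc88b), against 3.20% of all 32851 promoters. GAGGAA was present in 6 of 14 against 28.3%, GGAAGT in 5 of 14 against 23.8%, CCCGCCC in 7 of 14 against 25.6% and TGACTCA in 0 of 14 against 5.20%. Counted by gene, GAGGAAGT was in 3 of 8 against 3.69% of 27025 genes, and GAGGAA in 6 of 8 against 31.3%. GGAAGT was in 5 of 8 against 26.5%, CCCGCCC in 4 of 8 against 27.9% and TGACTCA in 0 of 8 against 5.95%. The 8 genes have more promoters each than genes in general, which favours a match by gene. The promoters are not all separate, as some CCCGCCC matches of Tcirg1 lie in more than 1 overlapping window. A match describes the letters in a window and does not show that a factor was bound.

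The sorted cells carried the markers of oligodendrocytes. Mbp, Mog and 8 other oligodendrocyte genes summed to between 21173 and 48306 CPM in WT, between 6248 and 29034 CPM in Cnp-Cre Jab1fl/fl and between 10273 and 27761 CPM in double mutants. Most of the sum in Cnp-Cre Jab1fl/fl was Mbp, whose mean did not fall (13038 CPM, against 10798 CPM in WT). Its samples spread from 5174 to 26410 CPM, the highest being replicate 1, against 7240 to 17302 CPM in WT. Other means fell, such as Opalin from 1147 to 58.4 CPM and Cnp from 7528 to 781 CPM. Cre is driven from the Cnp locus in the mutants, and its part in the fall of Cnp was not tested. In edgeR 6 of 10 (Cnp, Ermn, Mag, Mobp, Mog and Opalin) passed as lower in Cnp-Cre Jab1fl/fl than in WT, beside 2.46% of all genes. RNA of other cell types was present as well. Astrocyte markers summed to 1672 to 4659 CPM in WT, 1030 to 2444 CPM in Cnp-Cre Jab1fl/fl and 1144 to 3447 CPM in double mutants. Neuron markers summed to 28.6 to 47.6, 34.7 to 121 and 18.7 to 120 CPM in the same order. Microglia genes were also present in every library and are set beside the 9 genes further on, and 1 double mutant library, replicate 3, stood apart by their level. Reads over the whole of Cops5 ranged from 46.3 to 134 CPM in WT, from 44.9 to 89.0 CPM in Cnp-Cre Jab1fl/fl and from 44.2 to 90.4 CPM in double mutants, so the gene-level count did not separate the genotypes (log2 fold change -0.62, adjusted p = 0.349, edgeR, for Cnp-Cre Jab1fl/fl against WT). Cdkn1a ranged from 16.0 to 85.4 CPM in WT, from 379 to 636 CPM in Cnp-Cre Jab1fl/fl and from 64.7 to 103 CPM in double mutants, and counts over a whole gene include exons outside a deleted part. By qPCR in sorted O1+ cells, the paper reports lower Cops5 in Cnp-Cre Jab1fl/fl than in WT and no detectable Cdkn1a in double mutants. It also reports less JAB1 protein in the optic nerves of Cnp-Cre Jab1fl/fl mice.

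Cyth4 and Adap2, which act on ARF GTPases in opposite directions, were both near the detection filter in WT. Cyth4 was at 1.995, 4.07, 3.17 and 2.97 CPM in WT replicates 1, 3, 5 and 6, at 212, 141, 316 and 187 CPM in Cnp-Cre Jab1fl/fl replicates 1 to 4, and at 21.4, 20.8, 117.9 and 28.8 CPM in double mutant replicates 1, 2, 3 and 5. The 3 genotypes did not overlap, with double mutants in between, and double mutant replicate 3 stood above the other double mutants. The log2 fold change of Cyth4 between double mutants and Cnp-Cre Jab1fl/fl was -2.18 (SE 0.59), or -3.15 without double mutant replicate 3. Adap2 was at 1.995, 2.31, 2.72 and 1.22 CPM in WT, at 82.6, 66.4, 183 and 113 CPM in Cnp-Cre Jab1fl/fl and at 18.7, 9.63, 48.1 and 51.1 CPM in double mutants, in the same order of replicates. Again no genotype overlapped another, and the double mutants split into a lower pair (replicates 1 and 2) and a higher pair (replicates 3 and 5). Adap2 had a log2 fold change of 5.75 (SE 0.46) in Cnp-Cre Jab1fl/fl against WT and of -1.80 (SE 0.54) in double mutants against Cnp-Cre Jab1fl/fl.

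Plcb2, Pik3cd and Arrb2 act directly below cell surface receptors. Plcb2 was at 0.834, 0.110, 1.73 and 1.69 CPM in WT, at 122, 54.7, 97.4 and 116 CPM in Cnp-Cre Jab1fl/fl, and at 12.8, 12.7, 17.1 and 18.8 CPM in double mutants. Its double mutant samples lay closest together of the 9 genes, with a highest to lowest ratio of 1.48, and stood between the other genotypes without touching either. The log2 fold change of Plcb2 was 6.49 (SE 0.77) in Cnp-Cre Jab1fl/fl against WT and -2.67 (SE 0.35) in double mutants against Cnp-Cre Jab1fl/fl. Pik3cd was at 1.70, 2.84, 0.495 and 1.35 CPM in WT, at 45.9, 27.7, 61.0 and 48.9 CPM in Cnp-Cre Jab1fl/fl and at 6.16, 3.37, 19.9 and 11.8 CPM in double mutants. The lowest double mutant sample came near the highest WT sample but did not reach it, and the log2 fold changes were 4.84 (SE 0.57) and -2.16 (SE 0.55) in the same 2 comparisons. Arrb2 had more transcript in WT, at 4.90, 15.7, 7.42 and 5.06 CPM, rising to 65.9, 60.2, 141 and 62.5 CPM in Cnp-Cre Jab1fl/fl, and was at 10.6, 11.4, 27.8 and 12.9 CPM in double mutants. Here double mutants overlapped WT, and Cnp-Cre Jab1fl/fl replicate 3 was far above all other samples. Arrb2 had log2 fold changes of 3.32 (SE 0.48) in Cnp-Cre Jab1fl/fl against WT and -2.40 (SE 0.45) in double mutants against Cnp-Cre Jab1fl/fl.

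Among the 9 genes, Arhgap45 and Ccdc88b had the largest fitted log2 fold changes in Cnp-Cre Jab1fl/fl against WT. Arhgap45 was at 1.31, 0.233, 1.49 and 1.97 CPM in WT, at 197, 156, 416 and 166 CPM in Cnp-Cre Jab1fl/fl and at 14.6, 25.8, 54.9 and 34.4 CPM in double mutants, giving a log2 fold change of 7.55 (SE 0.72) and then of -2.85 (SE 0.49). Ccdc88b was at 1.15, 0.782, 0.812 and 0.195 CPM in WT, at 89.3, 39.9, 85.6 and 74.2 CPM in Cnp-Cre Jab1fl/fl and at 5.83, 6.74, 10.98 and 6.79 CPM in double mutants, giving 6.62 (SE 0.59) and then -3.25 (SE 0.39). In neither gene did any genotype overlap another. Ccdc88b had the largest fitted difference between double mutants and Cnp-Cre Jab1fl/fl of the 9 genes.

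The remaining pair belongs to the endolysosomal system, and the 2 genes behaved differently. Tcirg1 was well expressed in WT, at 67.4, 124, 98.8 and 67.8 CPM, and reached 370, 231, 623 and 357 CPM in Cnp-Cre Jab1fl/fl, a log2 fold change of 2.14 (SE 0.37). In double mutants it was at 80.0, 92.1, 86.2 and 38.5 CPM, inside or below the WT range, with a log2 fold change of -2.42 (SE 0.41) against Cnp-Cre Jab1fl/fl. Pld4 was at 1.51, 2.12, 2.496 and 0.932 CPM in WT, at 81.8, 51.3, 98.4 and 70.0 CPM in Cnp-Cre Jab1fl/fl, a log2 fold change of 5.42 (SE 0.43), and at 10.502, 18.4, 298 and 43.2 CPM in double mutants. Double mutant replicate 3 was the highest of all 12 samples for Pld4, while the other 3 double mutants were below every Cnp-Cre Jab1fl/fl sample. The log2 fold change between double mutants and Cnp-Cre Jab1fl/fl was 0.30 (SE 0.86) for Pld4 with all samples and -1.63 without double mutant replicate 3.

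**Figure D1:**
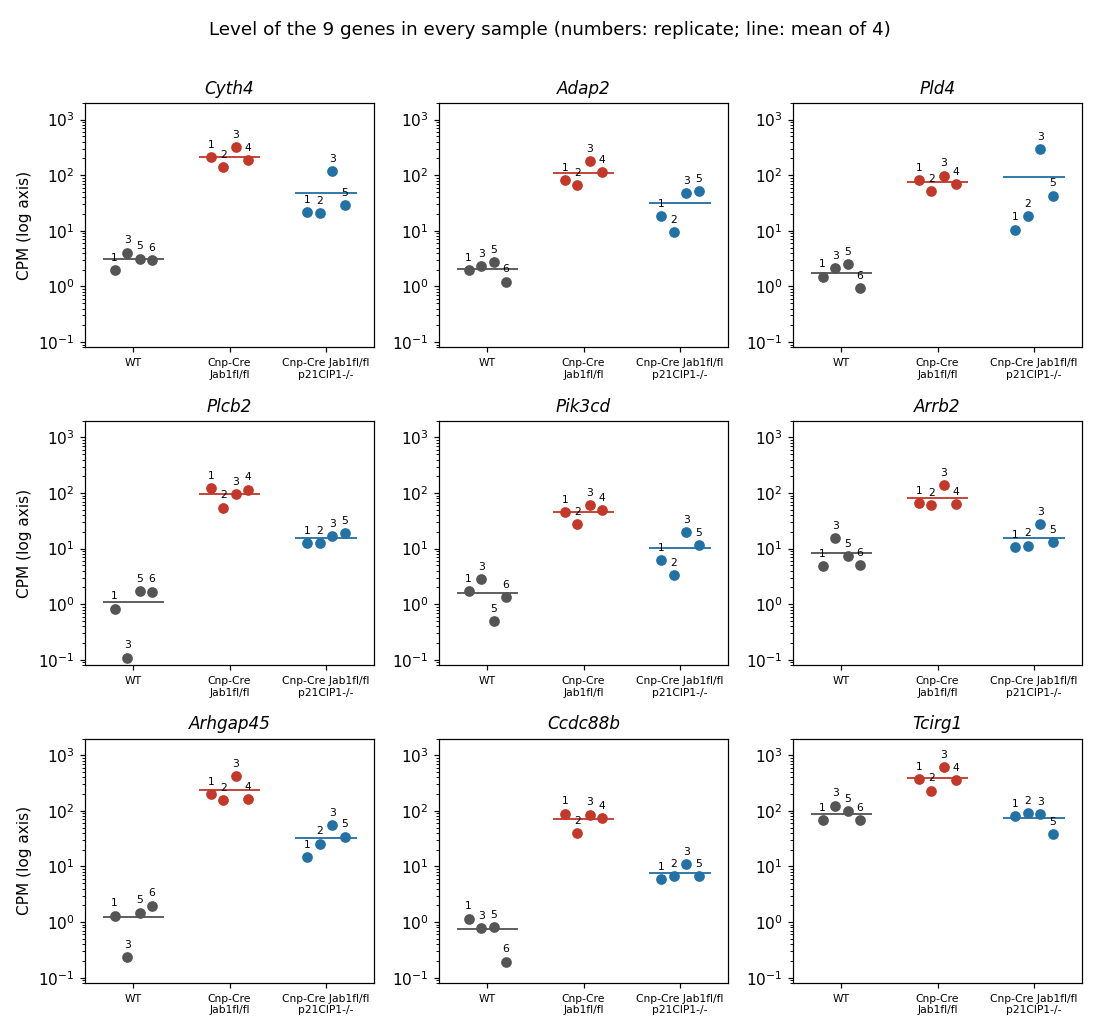
Level of each of the 9 genes in CPM (log axis) in the 4 samples of each genotype, with replicate numbers beside the points and the group mean as a line. In all 9 panels every Cnp-Cre Jab1fl/fl point is above every WT point, and only for Pld4 does a double mutant point (replicate 3, 298 CPM) reach the Cnp-Cre Jab1fl/fl points.

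Within Cnp-Cre Jab1fl/fl the samples kept a common order. Replicate 2 was the lowest for 9 of 9 genes and replicate 3 the highest for 7 of 9, the exceptions being Ccdc88b and Plcb2, which were highest in replicate 1. Among double mutants replicate 3 was the highest for 6 of 9 genes, and in WT the highest sample changed from gene to gene. Per kilobase of exon, Tcirg1 was the most abundant of the 9 transcripts in WT (27.0 ± 8.26 CPM per kb, SD, n = 4), followed by Arrb2 (4.28 ± 2.64), and the samples of these 2 genes overlapped neither each other nor those of Adap2, the next in order (1.16 ± 0.36). Among the remaining WT transcripts each overlapped its neighbour, down to Ccdc88b (0.148 ± 0.080 CPM per kb). In Cnp-Cre Jab1fl/fl the order began with Tcirg1 (119 ± 49.5 CPM per kb), Cyth4 (65.1 ± 22.5) and Adap2 (62.2 ± 28.8) and ended with Pik3cd (8.62 ± 2.59), and from Tcirg1 down to Pld4 each gene overlapped the next. Only between Pld4 (38.0 ± 10.003 CPM per kb), and Plcb2 (19.0 ± 5.92) was there a gap. In double mutants Pld4 led by its mean (46.7 ± 69.5 CPM per kb), which rested on replicate 3, and every gene overlapped its neighbour in the order.

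Between Cnp-Cre Jab1fl/fl and WT, 9 of 9 genes were past an adjusted p of 0.05 in edgeR and had samples that did not overlap. Of all 17716 genes tested, 5.19% were called higher and 2.46% lower, and 9.88% were higher without overlap. The 9 genes were chosen by this comparison, so nothing is read from their count. Their median log2 fold change was 5.75, with a range from 2.14 to 7.55.

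Between double mutants and Cnp-Cre Jab1fl/fl, the other comparison by which the genes were chosen, 8 of 9 genes were lower in every double mutant than in any Cnp-Cre Jab1fl/fl sample, as were 1.99% of all genes. Their median log2 fold change was -2.40, and -2.70 without double mutant replicate 3, against 0.02 for all genes. EdgeR called 0 of 9 genes and 0% of all genes at an adjusted p below 0.05. Before adjustment 8 of 9 genes were below 0.05 as lower, as were 3.25% of all genes, while 1.75% of all genes were below it as higher. DESeq2 called 7 of 9 as lower, and over all genes it called 0.378% lower and 0.113% higher. The choice of genes used these values, and nothing is read from them.

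The comparison of double mutants with WT shares all of its samples with the 2 comparisons above and is not independent of the choice. It shows how far the genes were from WT when p21 was absent as well. Cyth4 (log2 fold change 3.95, SE 0.65, adjusted p = 0.0457), Adap2 (3.94, SE 0.61, adjusted p = 0.0404) and Arhgap45 (4.69, SE 0.72, adjusted p = 0.0404) were past the threshold as higher in double mutants by edgeR. These 3 of 9 stood against 0.175% of all genes called higher and 0.0169% called lower, and the count was 0 when any of 7 of the 8 samples was left out and 4 without double mutant replicate 1. Pld4 (5.71, SE 1.07, adjusted p = 0.0786), Plcb2 (3.80, SE 0.79, adjusted p = 0.0878), Ccdc88b (3.36, SE 0.74, adjusted p = 0.102) and Pik3cd (2.68, SE 0.77, adjusted p = 0.195) did not pass in edgeR, although every double mutant was above every WT sample for each. Without double mutant replicate 3 the log2 fold change was 3.76 in place of 5.71 for Pld4 and 2.96 in place of 3.95 for Cyth4. In all, 7 of 9 genes were higher without overlap, as were 4.52% of all genes. Arrb2 (0.91, SE 0.54, adjusted p = 0.529) and Tcirg1 (-0.28, SE 0.35, adjusted p = 0.788) overlapped WT in edgeR's fit of the same 8 samples. Before adjustment 7 of 9 genes were below 0.05 as higher, against 7.82% of all genes higher and 4.57% lower, and DESeq2 called 7 of 9 as higher, against 3.74% of all genes higher and 1.12% lower.

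**Figure D2:**
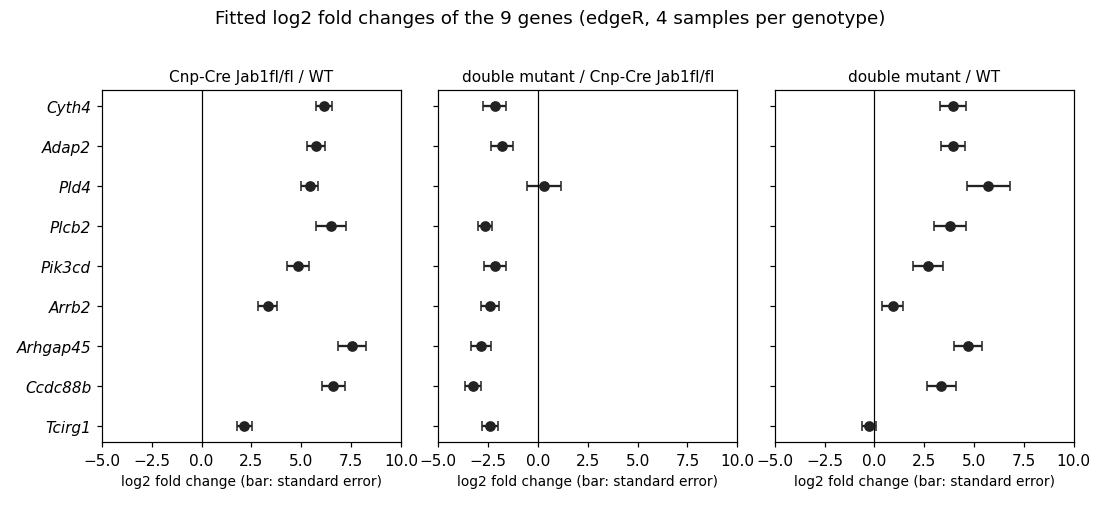
Fitted log2 fold changes of the 9 genes in the 3 comparisons (edgeR, 4 samples per genotype), with standard errors as bars and 0 as a line. All 9 lie above 0 on the left (2.14 to 7.55), 8 lie below 0 in the middle with Pld4 at 0.30, and on the right Tcirg1 (-0.28) and Arrb2 (0.91) are nearest to 0.

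Of 28 relatives of the 9 genes, chosen by family, 26 were tested (Pld5 and Atp6v0a4 were below the filter). In Cnp-Cre Jab1fl/fl against WT 5 of 26 passed in edgeR, 4 of them higher, beside 5.19% of all genes, and 1 lower, beside 2.46% of all genes. Their median log2 fold change was -0.10. Both other GTPase-activating proteins of the Arhgap45 family were among those that rose, Arhgap29 from 14.3 ± 5.83 CPM (SD, n = 4) in WT to 88.3 ± 44.4 CPM (log2 fold change 2.63, SE 0.49, adjusted p = 0.0100, edgeR) and Gmip from 4.33 ± 1.79 to 32.9 ± 13.6 CPM (2.93, SE 0.48, adjusted p = 0.00607, edgeR). Regulatory subunits of the G protein-coupled form of the phosphoinositide kinase rose as well, namely Pik3r6, from 5.005 ± 1.59 to 23.5 ± 13.2 CPM (2.23, SE 0.55, adjusted p = 0.0316, edgeR), and Pik3r5, which had at most 4 counts in any WT library and between 1.96 and 4.75 CPM in Cnp-Cre Jab1fl/fl (adjusted p = 0.0146, edgeR). Adap1, the only other gene of the Adap2 family, moved the other way, from 289 ± 134 to 82.0 ± 35.9 CPM (-1.82, SE 0.43, adjusted p = 0.0283, edgeR). The edgeR calls of Arhgap29, Gmip and Pik3r5 held whichever of the 8 samples was left out, whereas that of Pik3r6 was lost without any 1 of 7 samples (all but Cnp-Cre Jab1fl/fl replicate 2, adjusted p up to 0.0906) and that of Adap1 without any 1 of 6 (all but WT replicate 6 and Cnp-Cre Jab1fl/fl replicate 2, adjusted p up to 0.0793). In double mutants against Cnp-Cre Jab1fl/fl 0 of 26 passed in edgeR, as did 0% of all genes, and 0 by DESeq2. Below an unadjusted 0.05 were 3, all lower, beside 3.25% of all genes. In double mutants against WT 0 of 26 passed in edgeR, beside 0.175% of all genes called higher. At an unadjusted 0.05, 2 were higher and 3 lower, beside 7.82% and 4.57% of all genes. DESeq2 called Pik3r5 alone, beside 3.74% of all genes called higher.

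The make-up of each family differed between genotypes. In WT the leading transcript per kilobase in each family was another gene, except for Tcirg1: Cyth1, Adap1, Pld3, Ccdc88a, Arhgap29, Plcb1, Pik3ca, Atp6v0a1 and Arrb1 led the relatives. Cyth4 made up 0.928% of cytohesin transcripts per kilobase in WT, 45.6% in Cnp-Cre Jab1fl/fl (36.8% to 58.6% by sample) and 14.9% in double mutants (5.82% to 37.0%). The mean of Cyth1 went from 62.0 to 41.4 and 38.7 CPM per kb in the same genotypes, and in Cnp-Cre Jab1fl/fl against WT it did not pass (log2 fold change -0.58, adjusted p = 0.359, edgeR). Plcb2 went from 0.643% of the phospholipase C beta family in WT to 30.5% and 9.82%, Ccdc88b from 0.312% to 26.4% and 3.84%, and Arrb2 from 27.6% of beta-arrestin transcripts to 84.4% and 58.4%. Tcirg1 already made up 40.3% of its family of pump subunits in WT, against 83.3% in Cnp-Cre Jab1fl/fl and 44.3% in double mutants. These shares use the levels by which the genes were chosen and are a description.

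**Figure D3:**
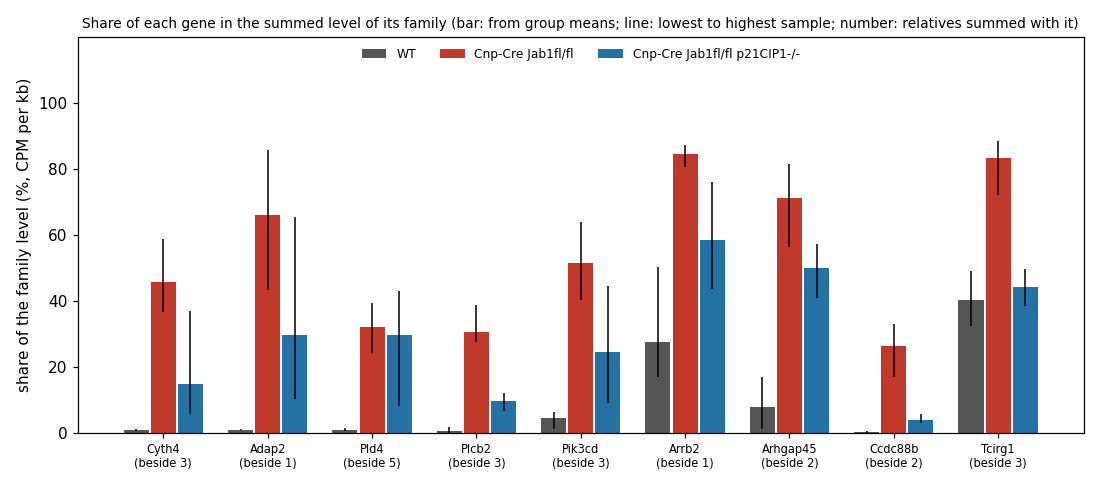
Share of each of the 9 genes in the summed level (CPM per kb of exon) of its family, as bars from the group means and lines from the lowest to the highest sample, for the 3 genotypes. The bar of Cnp-Cre Jab1fl/fl is the tallest for each gene, from 26.4% for Ccdc88b to 84.4% for Arrb2, and the lines of Cnp-Cre Jab1fl/fl and double mutants overlap for Cyth4, Adap2, Pld4, Pik3cd and Arhgap45.

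The partners of Tcirg1 in the pump and the ARF GTPases, on which Cyth4 and Adap2 act, gave no call in edgeR. Of 21 other vacuolar proton pump subunits and ARF GTPases, 20 were tested (Atp6v0d2 was below the filter) and 0 were called in edgeR in any of the 3 comparisons. In Cnp-Cre Jab1fl/fl against WT 2 of 20 were below an unadjusted 0.05, as were 22.5% of all genes in either direction, and DESeq2 called 1 (Atp6ap1), against 15.2% of all genes. The 2 with the smallest p were accessory subunits of the pump, Atp6ap1 (from 577 ± 171 to 280 ± 95.5 CPM, log2 fold change -1.04, SE 0.34, adjusted p = 0.0944, edgeR) and Atp6ap2 (-0.74, SE 0.31, adjusted p = 0.176, edgeR). In double mutants against Cnp-Cre Jab1fl/fl 1 of 20 was higher at an unadjusted 0.05, as were 1.75% of all genes, with 0 by DESeq2. Against WT 1 was higher at an unadjusted 0.05, beside 7.82% of all genes, and DESeq2 called 1 (Arf4), beside 3.74% of all genes. The median log2 fold change of these 20 genes in Cnp-Cre Jab1fl/fl against WT was 0.05, beside 2.14 for Tcirg1.

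Other signalling genes of blood lineage cells rose in Cnp-Cre Jab1fl/fl. A list of 30 such genes outside the 9 was drawn up, like the other gene lists, with earlier results of these data known. Its count is therefore not independent of them. Of these 30, 25 were called higher and 0 lower than in WT in edgeR, with a median log2 fold change of 4.36, against 5.19% of all genes called higher. The 5 with the smallest adjusted p were Rasal3, a GTPase-activating protein for Ras (8.86, SE 0.95, adjusted p = 8.9e-04, edgeR), Coro1a, an actin regulator of leukocytes (3.42, SE 0.41, adjusted p = 0.00168, edgeR), Fcer1g, the signalling chain of Fc receptors (4.08, SE 0.48, adjusted p = 0.00168, edgeR), and the GTPase-activating proteins Arhgap30 (8.72, SE 1.09, adjusted p = 0.00195, edgeR) and Arhgap9. Arhgap9 had at most 3 counts in any WT library and between 4.73 and 22.02 CPM in Cnp-Cre Jab1fl/fl (adjusted p = 0.00213, edgeR). Rasal3 shares 635 exon bases with CT485616.1 on the other strand, and Arhgap9 shares 62 with Gli1. The 5 genes not called were Rac2, Lcp2, Lcp1, Pik3ap1 and Elmo1, of which Elmo1, also used outside leukocytes, was at 143 ± 62.9 CPM in WT and 76.2 ± 19.5 CPM in Cnp-Cre Jab1fl/fl.

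With p21 lost as well, 29 of these 30 genes had a positive log2 fold change against WT. The median was 3.94, or 2.66 without double mutant replicate 3, against 6.9e-05 for all genes. In double mutants against Cnp-Cre Jab1fl/fl 0 of 30 passed in edgeR, as did 0% of all genes. Below an unadjusted 0.05 were 6, all lower, beside 3.25% of all genes. DESeq2 called 4 (Apbb1ip, Arhgap30, Fyb and Rasal3), all lower, beside 0.378% of all genes. The median log2 fold change of the 30 genes was -0.51 with all samples and -1.87 without double mutant replicate 3. Rasal3 was at 56.2 ± 26.5 CPM in Cnp-Cre Jab1fl/fl and 10.4 ± 9.54 CPM in double mutants, whereas Fcer1g was at 72.5 ± 41.7 and 214 ± 312 CPM. The wide spread of Fcer1g came from double mutant samples between 10.3 and 676 CPM. Against WT 0 of 30 passed in edgeR in double mutants, beside 0.175% of all genes called higher. At an unadjusted 0.05, 24 were higher, beside 7.82% of all genes, and DESeq2 called 20 as higher, beside 3.74%.

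Genes that mark microglia were, like the 9 genes, higher in Cnp-Cre Jab1fl/fl than in WT, although CD45+ and CD11b+ cells had been gated out. On reanalysis the paper found no overt CD45+ cells, but the O1+ purity was incomplete and its authors could not exclude minor contamination. Of 17 microglia markers, 15 were called higher in Cnp-Cre Jab1fl/fl than in WT in edgeR, beside 5.19% of all genes. P2ry13 and Sall1 were not called. The summed level of the 17 was between 147 and 350 CPM in WT, between 1195 and 3046 CPM in Cnp-Cre Jab1fl/fl and between 474 and 21457 CPM in double mutants. Ptprc, which encodes CD45, was at 0 to 1.53 CPM in WT, 31.7 to 107 CPM in Cnp-Cre Jab1fl/fl and 3.11 to 101.1 CPM in double mutants, with a log2 fold change of 7.16 (SE 1.29, adjusted p = 0.00889, edgeR) in Cnp-Cre Jab1fl/fl against WT. In bulk samples, more or fewer cells of a type and more or less RNA per cell cannot be told apart, and the part of microglial RNA in the levels of the 9 genes was not tested.

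Double mutant replicate 3 stood apart, at 21457 CPM of microglia markers against 474 to 2356 CPM in the other 3 double mutants. The median log2 fold change of the 17 markers in double mutants against Cnp-Cre Jab1fl/fl was 1.38 with all samples and -1.10 without that library. Of the markers 0 of 17 passed in edgeR, at an unadjusted 0.05 or in DESeq2. The 9 genes were at -2.40 and -2.70, but this comparison helped to choose them, so nothing is read from the gap. The 30 other blood signalling genes were at -0.51 and -1.87. In double mutant replicate 3 Pld4 exceeded every Cnp-Cre Jab1fl/fl sample. Each of the other genes stayed below every Cnp-Cre Jab1fl/fl sample there, from Ccdc88b (10.98 CPM) to Cyth4 (117.9 CPM). Double mutant replicate 5, at 2356 CPM of microglia markers, was within the range of Cnp-Cre Jab1fl/fl by these markers. It was below every Cnp-Cre Jab1fl/fl sample for each of the 9 genes, with Ccdc88b at 6.79 CPM, Pld4 at 43.2 CPM and Adap2 at 51.1 CPM. The choice of the 9 genes used these same samples, so nothing is read from where the genes stood in either library.

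Set against the microglia markers of the same sample, the 9 genes differed among themselves. Ccdc88b was at 2.44% to 4.30% of the summed marker level in Cnp-Cre Jab1fl/fl, at 0.0512% to 1.23% in double mutants and at 0.0722% to 0.553% in WT. Plcb2 was at 3.80% to 4.89%, 0.0798% to 2.70% and 0.0748% to 0.626%, and Cyth4 at 6.13% to 15.9%, 0.550% to 4.52% and 0.904% to 2.77%, in the same order. Arhgap45 was at 5.44% to 20.9% in Cnp-Cre Jab1fl/fl and 0.256% to 3.07% in double mutants, and Pik3cd at 1.55% to 3.06% and 0.0926% to 1.30%. Pld4 had the narrowest range in double mutants, 1.39% to 2.22%, just below the 2.30% to 4.94% of Cnp-Cre Jab1fl/fl. These genotypes overlapped for Adap2 (2.80% to 9.17% in Cnp-Cre Jab1fl/fl and 0.224% to 3.94% in double mutants), for Arrb2 (2.05% to 7.07% and 0.129% to 2.24%) and for Tcirg1 (11.7% to 31.3% and 0.402% to 16.9%). For Tcirg1 the percentage was highest in WT, at 25.1% to 84.4%. The lowest double mutant value of each gene was that of replicate 3, whose marker sum was the largest. The percentages use the levels by which the genes were chosen and are a description.

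**Figure D4:**
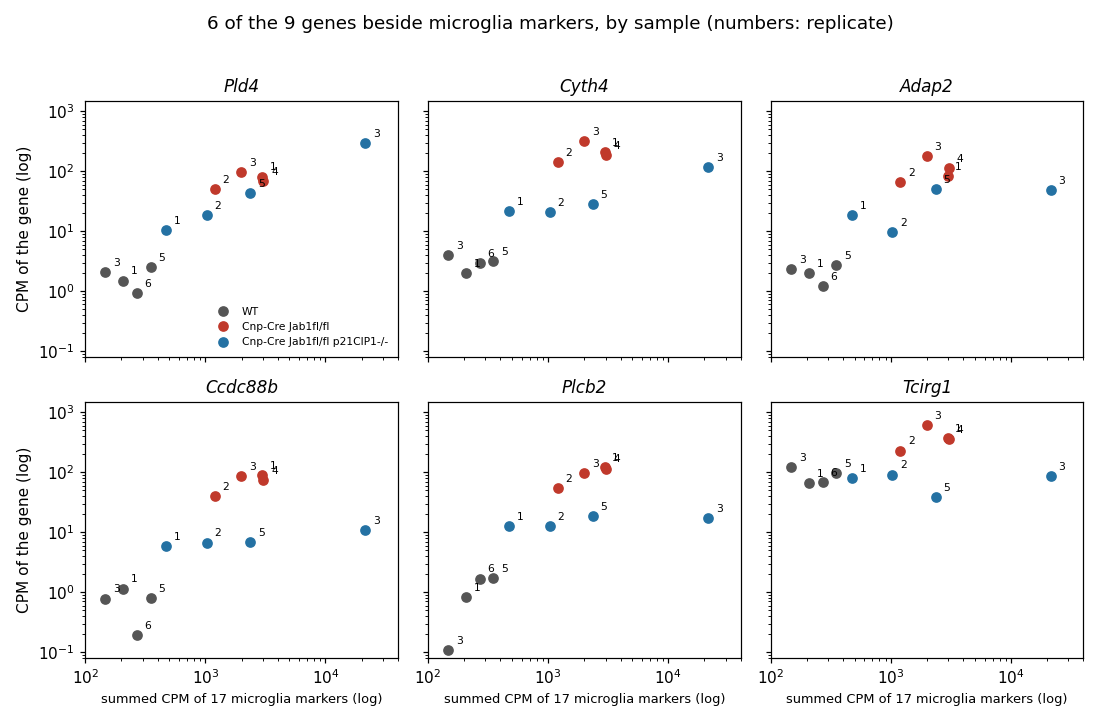
CPM of 6 of the 9 genes against the summed CPM of 17 microglia markers in the same sample (both axes logarithmic), coloured by genotype and numbered by replicate. Double mutant replicate 3 lies far to the right at 21457 CPM, where Pld4 is at its highest (298 CPM). The other genes drawn, Cyth4 (117.9 CPM), Adap2 (48.1 CPM), Ccdc88b (10.98 CPM), Plcb2 (17.1 CPM) and Tcirg1 (86.2 CPM), are below all Cnp-Cre Jab1fl/fl points there.

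Markers of lymphocytes and neutrophils were low in most libraries, with exceptions. T cell markers summed to at most 18.5 CPM in any sample, with Lck at 13.8 CPM in Cnp-Cre Jab1fl/fl replicate 1, and B cell markers to at most 30.3 CPM, with Cd79b at 29.5 CPM in double mutant replicate 3. Cd3e and Cd2 were at 0 in every WT library, Cd2 also in every Cnp-Cre Jab1fl/fl library, and Ms4a1 in all libraries of both. The 7 neutrophil and monocyte markers summed to between 0.604 and 2.17 CPM in WT, 7.68 and 17.3 CPM in Cnp-Cre Jab1fl/fl and 2.29 and 117 CPM in double mutants. S100a8 and S100a9 were at 0 throughout Cnp-Cre Jab1fl/fl, but in double mutant replicate 3 S100a8 was at 51.6 CPM, S100a9 at 33.8 CPM and Ngp at 22.7 CPM, above Ccdc88b and Plcb2 in that library. Border macrophage markers summed to between 3.84 and 7.68 CPM in WT, 4.22 and 13.7 CPM in Cnp-Cre Jab1fl/fl and 6.79 and 58.4 CPM in double mutants. Endothelial markers (Cldn5, Flt1 and Pecam1) summed to between 129 and 295 CPM in WT, 387 and 2456 CPM in Cnp-Cre Jab1fl/fl and 278 and 2168 CPM in double mutants. In edgeR 2 of 3 were called higher in Cnp-Cre Jab1fl/fl than in WT, beside 5.19% of all genes. In double mutants against Cnp-Cre Jab1fl/fl their median log2 fold change was -0.38, and 0 of 3 passed in edgeR, at an unadjusted 0.05 or in DESeq2. The part of these cell types in the levels of the 9 genes was not tested.

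The 5 other genes with the profile most like that of the 9 over the 12 samples were Trpm2, Il6ra, Neurl3, AU020206 and Nlrp1b. Likeness was the root mean square difference between centred log2(CPM + 0.5) profiles, which was 0.37 for Trpm2, a calcium-permeable channel, 0.40 for Il6ra, the interleukin-6 receptor, 0.52 for Neurl3, a ubiquitin ligase, 0.53 for AU020206, a long non-coding RNA, and 0.54 for Nlrp1b, an inflammasome sensor, against a median of 2.24 over all 17716 genes. Among the 9 genes Cyth4 (0.46) and Adap2 (0.49) were nearest to their common profile and Tcirg1 (1.49) was farthest from it. Trpm2 ranged from 0.059 to 0.750 CPM in WT, from 13.9 to 58.6 CPM in Cnp-Cre Jab1fl/fl and from 1.85 to 8.20 CPM in double mutants. Il6ra, which shares 242 exon bases with Gm42809 on the other strand, ranged from 0.444 to 1.196 CPM, 23.9 to 67.8 CPM and 3.18 to 14.5 CPM in the same genotypes. As in most of the 9 genes, the genotypes of both did not overlap, which the choice by profile makes likely.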

How the data were processed

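RNA from O1+ sorted cells of 12 samples was amplified with SMART-Seq v4 and sequenced as paired ends. The authors used Trimmomatic 0.32 for trimming, STAR 2.5.3a for alignment to GRCm38 and featureCounts with GENCODE, and deposited raw counts for each symbol. Strand and multimapping settings are not given in the sources used here, and amplified reads were counted without molecular identifiers. Groups came from the labels. Counts were tested with edgeR 4.0.16 (TMM, quasi-likelihood, genes reaching 1 CPM in 4 or more of 12 samples, 4 against 4 samples, Benjamini-Hochberg over 17716 genes, threshold 0.05) in R 4.3.3. DESeq2 1.42.0, other size factors, no filter, a fit of all 12 samples, a replicate block and leaving out each sample were alternatives. Printed CPM used TMM-scaled totals, the filter used plain totals, and lengths and positions came from GENCODE M21. The fits were tested on simulated data. Separate pools of mice are replicates. Same-numbered samples did not visibly deviate together (r from -0.17 to 0.08). This cannot exclude a shared litter, sort day or batch, and the reported fits used no pairing. The 9 genes and every gene list were chosen with earlier results of these data known. Named genes were the 9, every called relative and the leading relative of each, 5 blood signalling genes by adjusted p and those not called, 2 pump genes by p, 5 nearest profiles, Cops5, Cdkn1a and Ptprc. Apbb1ip, Fyb and Arf4 were named after their values were seen, since DESeq2 called them, as were Lck, Cd79b, S100a8, S100a9 and Ngp among the cell type markers. An oligodendrocyte marker of the original list is not reported here.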

Additional observations from a re-analysis of the deposited data

Results flagged for a closer look

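A sample was singled out where its gap to the nearest of the other 3 in its genotype took up most of the range of the 4, by Dixon's criterion at 95%. This was done for the 9 genes, their sum, Ptprc and the summed microglia markers, in 36 groups, of which chance alone flags about 1 in 20. Double mutant replicate 3 was far above the other 3 double mutants in Cyth4 (117.9 CPM against 20.8 to 28.8), Pld4 (298 CPM against 10.502 to 43.2), Arrb2 (27.8 CPM against 10.6 to 12.9), the sum of the 9 genes (681 CPM against 180 to 246), Ptprc (101.1 CPM against 3.11 to 10.9) and the summed microglia markers (21457 CPM against 474 to 2356). Cnp-Cre Jab1fl/fl replicate 3 was far above the other 3 of its genotype in Arhgap45 (416 CPM against 156 to 197) and Arrb2 (141 CPM against 60.2 to 65.9). WT replicate 6 held 1.53 CPM of Ptprc against 0 to 0.178 CPM in the other WT samples.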

How the results depend on the processing

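In Cnp-Cre Jab1fl/fl against WT 5 relatives were called in the reported fit, 3 with all 12 samples fitted together, 2 with the replicate block, and 3 to 6 when a sample was left out; 25 blood signalling genes became 18 to 23 with a sample left out, and DESeq2 called 1 pump or ARF gene. In double mutants against Cnp-Cre Jab1fl/fl DESeq2 called 7 of the 9 genes and 4 blood signalling genes, and leaving out a sample gave 0 to 2 of the 9, the 2 being without Cnp-Cre Jab1fl/fl replicate 2. In double mutants against WT 3 of the 9 were called in the reported fit, 7 by DESeq2, 1 with no filter, 6 with all 12 samples together, 0 with the replicate block and 0 to 4 with a sample left out. There, relatives went from 0 to 1 by DESeq2 and with all 12 samples and to 0 to 1 with a sample left out, blood signalling genes from 0 to 20 by DESeq2, to 6 with all 12 samples and to 0 to 7 with a sample left out, the 7 and the relative being without double mutant replicate 1, and DESeq2 called 1 pump or ARF gene. The log2 fold change of Adap1 in double mutants against Cnp-Cre Jab1fl/fl was 0.39 and ranged from -0.33 (without double mutant replicate 1) to 0.67 (without double mutant replicate 5), and it was not called. Medians without double mutant replicate 3 were computed after seeing the data: in double mutants against WT they were 3.13 in place of 3.80 for the 9 genes, 2.66 in place of 3.94 for blood signalling genes and 2.21 in place of 4.57 for microglia markers. The replicate block used the sample numbers, whose meaning the labels do not give, and it leaves fewer degrees of freedom. The causes of the other changes were not tested. Plcb2 and Ccdc88b, near 1 CPM in WT, had as few as 17 and 18 counts in a WT library.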
